A study of Schizosaccharomyces pombe with 12 samples.

Results

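The loci described here lie at both ends of chromosome II of fission yeast, Schizosaccharomyces pombe. They were taken by the clone name in their systematic ID: SPBC1348, SPBPB8B6, SPBPB21E7, SPBPB10D8 and SPBC359 at the left end, and SPBPB2B2 and SPBCPT2R1 at the right end. Apart from 1 locus that is not analysed here, these 7 prefixes gave 67 loci of the 6986 IDs in the count table, 41 at the left end and 26 at the right end. By the ASM294v3 annotation, 37 loci at the left end and 22 at the right end were protein-coding, and 4 at each end were pseudogenes. They reached between 0.303 and 128.609 kb from the left end of the chromosome and between 6.905 and 79.962 kb from the right end.

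Poly(A)+ RNA was sequenced from dis2Δ, swd22Δ, ppn1Δ and wild-type cells, with 3 biological replicates of each strain and 12 libraries in all. All 4 strains were h+ haploids taken from logarithmic cultures in rich medium (YES, 30°C), and each genotype was represented by a single strain. The labels mark the deletion with a NatMX cassette at dis2 and with a HygMX cassette at swd22 and ppn1. Dis2 is a protein phosphatase of the PP1 family, Swd22 is a WD-repeat protein and Ppn1 is the fission yeast relative of the PP1 partner PNUTS. Together they form a module of the cleavage and polyadenylation factor, which makes the 3′ ends of mRNAs and acts in termination by RNA polymerase II. The question was which annotated loci depend on each subunit.

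Subtelomeres are the stretches of chromosome next to the telomere repeats. In fission yeast the outermost part is made of repeats shared between chromosome ends, includes genes for RecQ-type helicases (tlh), and is packed in heterochromatin. Further in lies condensed chromatin with genes for transporters, enzymes of nutrient use and cell surface proteins, many of which are kept low in growing cells and come on in nitrogen starvation or meiosis. These are statements of background and were not measured here.

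The libraries held from 17616688 to 23435936 counts. Counts at the deleted genes were lower in their own mutants but not 0, with 646 to 900 counts of dis2 in dis2Δ against 11788 to 12259 in wild-type, 10 to 26 counts of swd22 in swd22Δ against 1407 to 1618 in wild-type, and 86 to 150 counts of ppn1 in ppn1Δ against 462 to 549 in wild-type. No library went against its label.

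Many of the 67 loci could not be measured on their own with certainty. A read of 51 bases has a single place only where the genome holds that word at 1 position, so each locus was scored by the percentage of its 51-base exon words that are unique in the ASM294v3 genome. This was 100% for 31 loci, under 50% for 34 loci, and 0% for 18 loci. The score takes each read singly, although the reads were sequenced in pairs. In the table, 8 loci had 0 counts in every library (5 at the left end and 3 at the right end), and 16 more never exceeded 9 counts in any library. Of the 8 loci at 0, 6 had no unique word. SPBPB21E7.05, an uncharacterized protein, had 100% unique words and was at 0 as well. A count of 0 allows up to 3 counts per library by counting error alone. After the filter on low counts 42 loci were tested (28 at the left end and 14 at the right end), and 25 were not.

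The clearest case of shared sequence was a row of 4 membrane transporter genes about 91.4 to 101.1 kb from the left end, SPBPB10D8.04c, SPBPB10D8.05c, SPBPB10D8.06c and SPBPB10D8.07c. Their coding sequences are 1140 bases long and identical in the RefSeq ASM294v3 genome. The last 30 coding bases of each, 5′ to 3′ with the stop codon in capitals, are shown because a read within them could come from any copy:
SPBPB10D8.04c: tcgagtaaaaatttggttggtattatcTGA
SPBPB10D8.05c: tcgagtaaaaatttggttggtattatcTGA
SPBPB10D8.06c: tcgagtaaaaatttggttggtattatcTGA
SPBPB10D8.07c: tcgagtaaaaatttggttggtattatcTGA
These stretches lie on the minus strand of chromosome II at 91724 to 91753, 94483 to 94512, 97242 to 97271 and 100001 to 100030. SPBPB10D8.05c and SPBPB10D8.06c, annotated without untranslated sequence, had 0 counts in all 12 libraries. SPBPB10D8.04c, whose model of 1488 bases has 18.15% unique words, had 13, 4 and 12 counts in dis2Δ, 19, 16 and 8 in swd22Δ, 31, 28 and 34 in ppn1Δ, and 39, 28 and 25 in wild-type. SPBPB10D8.07c had at most 11 counts in any library and was not tested. The counts of SPBPB10D8.04c were lower in dis2Δ than in wild-type by 1.65 on the log2 scale (SE 0.344, edgeR adjusted p = 0.001), in libraries that did not overlap, but its mean stayed under the count of 100 required for a call.

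A different kind of doubt attaches to overlapping loci. Of the 67 loci, 16 overlap a counted locus on the other strand. The libraries were made with a stranded kit, but the strand setting of the counting is not given in the sources used here, so reads of such a locus and of its antisense partner cannot be told apart with certainty. The overlap is given below beside the loci it concerns.

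As a share of each library the 67 loci were a small fraction that was highest in dis2Δ. They took 0.162%, 0.164% and 0.174% of the counts in dis2Δ, 0.0722%, 0.0846% and 0.0677% in swd22Δ, 0.0797%, 0.0862% and 0.0869% in ppn1Δ, and 0.0589%, 0.0653% and 0.0587% in wild-type. In RNA from a whole culture, more cells that express a locus and more RNA per cell cannot be told apart. The ends differed in how far each mutant lay from wild-type. At the left end the summed normalized counts were 28130 to 28827 in dis2Δ, 10620 to 12841 in swd22Δ, 11193 to 12087 in ppn1Δ, and 9862.6 to 10483 in wild-type. Normalized counts were scaled by library size and TMM factors to a library of 20838907 counts. At the right end the sums were 6656.2 to 7268.2 in dis2Δ, 4124.3 to 4187.5 in swd22Δ, 5082.2 to 5680.1 in ppn1Δ, and 2389.8 to 2843.0 in wild-type. Neither sum overlapped between any mutant and wild-type. Each sum rests heavily on a few loci: in dis2Δ aes1 alone had 8536 to 9370 counts at the left end, and SPBPB2B2.06c had 2776 to 3331 at the right end.

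**Figure D1:**
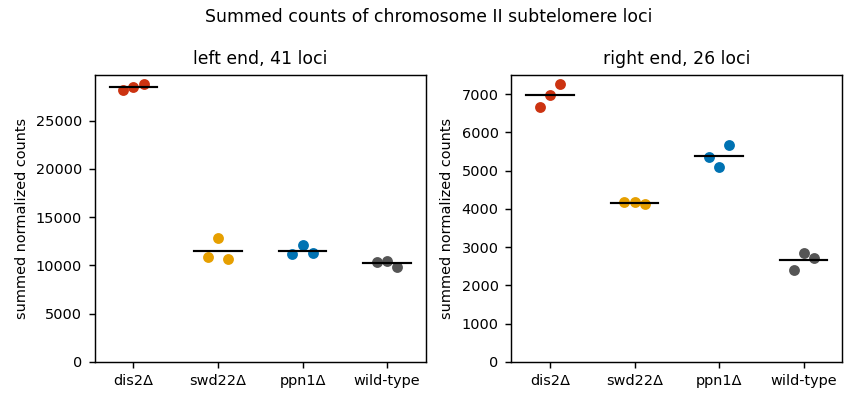
Summed normalized counts (y axes, from 0) of the 41 loci of the left end and the 26 loci of the right end, with a point per library and a line at the mean of 3 libraries for dis2Δ, swd22Δ, ppn1Δ and wild-type. At the left end dis2Δ lies between 28130 and 28827 and the other strains between 9862.6 and 12841, while at the right end all 3 mutants lie above wild-type.

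A locus was called when its edgeR quasi-likelihood test had a Benjamini-Hochberg adjusted p at or below 0.05 over the 6110 loci tested, its change was at least 2-fold, and its mean normalized count was at least 100 in either strain. In dis2Δ 18 loci were called higher and 1 lower than in wild-type, and 1.75% and 1.03% of all loci tested were called in these directions. In swd22Δ 3 loci were called higher and 2 lower, against 1.55% and 1.72% of all loci tested. In ppn1Δ 4 loci were called higher and 2 lower, against 1.67% and 1.78% of all loci tested. By location, 14 of the 18 loci higher in dis2Δ were at the left end and 4 at the right end, whereas all 3 loci higher in swd22Δ and 3 of the 4 higher in ppn1Δ were at the right end.

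The cutoff on the mean count left out several lightly transcribed loci. Without it 25 loci were higher and 2 lower in dis2Δ (3.52% and 2.14% of all loci tested), 6 were higher and 4 lower in swd22Δ (3.52% and 2.95%), and 9 were higher and 2 lower in ppn1Δ (4.29% and 2.77%). The 25 include 6 loci that had fewer than 10 counts in every wild-type library and passed the filter on low counts through the mutants, so that their number is a description only.

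The median log2 fold change over the 42 loci tested was 1.87 in dis2Δ, 0.15 in swd22Δ and 0.55 in ppn1Δ, where the medians over all 6110 loci were 0.00, 0.00 and 0.01. In dis2Δ it was 2.31 over the left end and 0.75 over the right end. These medians describe the loci that passed the filter and no more, which hold the same 6 loci. All 3 dis2Δ libraries lay above all 3 wild-type libraries for 35 loci and below for 2, where 24.9% and 27.9% of all loci tested did so. The same held for 13 and 9 loci in swd22Δ (22.7% and 25.3% of all loci) and for 22 and 6 loci in ppn1Δ (25.7% and 29.0% of all loci). The 35 include all 6 loci that passed the filter through the mutants, and the 13 and the 22 include some of them. These numbers are therefore a description only.

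**Figure D2:**
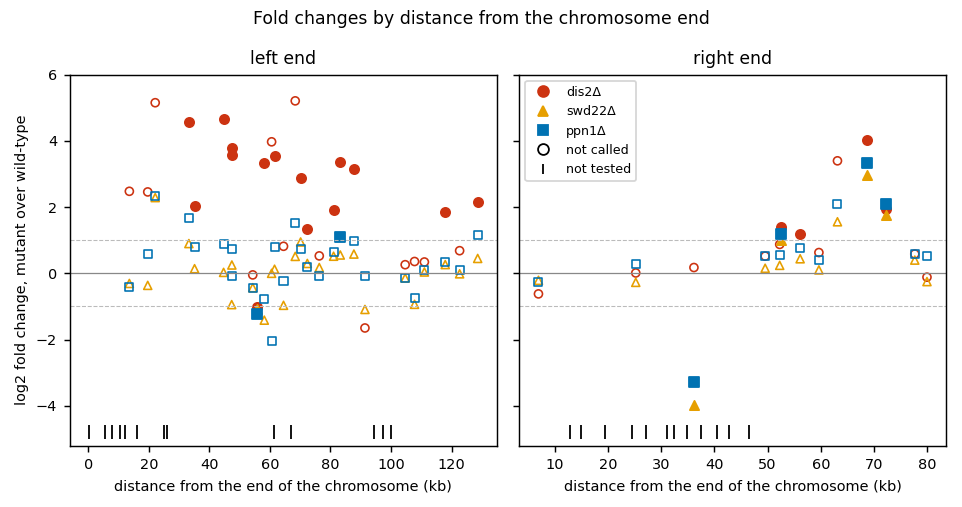
Log2 fold change of each mutant over wild-type (y axis) against distance from the left or right end of chromosome II (x axis, kb) for the loci tested, with filled symbols for loci that passed all cutoffs, open symbols for those that did not, dashed lines at 2-fold, and ticks at the foot for loci that were not tested. SPBPB2B2.07c is left out because its wild-type libraries are at 0. Filled dis2Δ symbols run from about 33 to 129 kb at the left end, whereas at the right end the filled symbols above 0 are of all 3 mutants and lie between 40 and 80 kb, with SPBPB2B2.18 below 0 at 36.14 kb in swd22Δ and ppn1Δ.

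Distance from the end separated what could be measured. Within 30 kb of the left end 3 of 11 loci were tested and none reached the mean count of 100. All 3 passed the p and fold cutoffs in dis2Δ, with a median log2 fold change of 2.475. These 3 are among the 6 loci that passed the filter on low counts through the mutants. From 30 to 60 kb all 8 loci were tested, with 6 called higher and 1 lower in dis2Δ. From 60 to 100 kb 6 of 11 tested loci were called higher in dis2Δ and none lower. From 100 to 130 kb 2 of 6 were called higher in dis2Δ, with a median log2 fold change of 0.52. At the right end 3 of 12 loci within 40 kb were tested and none was called higher in any mutant. From 40 to 80 kb 11 of 14 loci were tested, with 4 called higher in dis2Δ, 3 in swd22Δ and 3 in ppn1Δ. Over all loci tested 1.75%, 1.55% and 1.67% were called higher in these mutants, and 1.03%, 1.72% and 1.78% lower.

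Within 30 kb of the left end the counts were low throughout. The tested locus nearest to this end was SPBC1348.05, a transporter 13.6 kb in with 2.9% unique words. It had 19, 14 and 24 counts in dis2Δ, 4, 2 and 2 in swd22Δ, 1, 6 and 1 in ppn1Δ, and 2, 4 and 4 in wild-type. SPBC1348.08c, a cell surface glycoprotein, had 49, 30 and 40 counts in dis2Δ, 6, 4 and 6 in swd22Δ, 9, 3 and 6 in ppn1Δ, and 2, 1 and 0 in wild-type. Its ratio over wild-type in dis2Δ was 39.8 with an exact 95% counting interval of 13.3 to 196, and in swd22Δ and ppn1Δ it was 5.34 (1.53 to 28.6) and 5.56 (1.62 to 29.5). These intervals cover counting error only. This glycoprotein gene has 3.73% unique words and differs from its copy on chromosome I, pfl6, at 1 of 1251 aligned coding bases. The copy had 30, 15 and 20 counts in dis2Δ, 9, 15 and 13 in swd22Δ, 14, 4 and 16 in ppn1Δ, and 7, 11 and 9 in wild-type. In wild-type the copy thus had more counts than SPBC1348.08c, and in dis2Δ fewer. How the counting divided reads between them was not tested, so the ratios of SPBC1348.08c alone may not hold for both copies together.

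The transcription factor genes of the left end were both called higher in dis2Δ and in no other mutant. SPBC1348.12, annotated as a DNA-binding transcription factor, had 462, 470 and 530 counts in dis2Δ, 114, 170 and 111 in swd22Δ, 214, 183 and 273 in ppn1Δ, and 122, 144 and 93 in wild-type. It was higher by 2.04 on the log2 scale in dis2Δ (SE 0.147, edgeR adjusted p = 1.3e-08). In ppn1Δ the difference was 0.79 (edgeR adjusted p = 0.00042), under 2-fold. The grt1 gene, annotated as transcription factor Grt1, had 1136, 1042 and 1107 counts in dis2Δ, 52, 45 and 46 in swd22Δ, 107, 93 and 77 in ppn1Δ, and 101, 99 and 77 in wild-type. Its log2 fold change was 3.58 in dis2Δ (SE 0.141, edgeR adjusted p = 5.2e-12) and -0.95 in swd22Δ (SE 0.181, edgeR adjusted p = 0.0005), so that the swd22Δ libraries lay below wild-type and the dis2Δ libraries far above.

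The gene fah1, annotated as an acetamidase, lies wholly within grt1 on the other strand. It had 243, 189 and 221 counts in dis2Δ, 18, 26 and 12 in swd22Δ, 24, 22 and 38 in ppn1Δ, and 8, 23 and 16 in wild-type, a log2 fold change of 3.79 in dis2Δ (SE 0.243). Although it shares all of its length with grt1, it had counts in every library. The non-coding locus SPNCRNA.1301, which also overlaps grt1 on the other strand, was higher in dis2Δ by 2.58 on the log2 scale. How much of each of these counts comes from the partner locus was not tested.

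Enzyme genes were the largest group of these loci by role, and also held the most called loci. Of 20 loci with an annotated enzyme 17 were tested, and 8 were called higher in dis2Δ, 3 in swd22Δ and 4 in ppn1Δ. The shares of all loci tested were 1.75%, 1.55% and 1.67%. No enzyme gene was called lower, against 1.03%, 1.72% and 1.78%. In dis2Δ the most abundant per kb of exon was aes1, for a protein of the phenazine biosynthesis family, whose mean per kb was 7861 normalized counts in dis2Δ, 2061 in swd22Δ, 1768 in ppn1Δ and 1072 in wild-type. It had 9370, 8536 and 9211 counts in dis2Δ, 2152, 3261 and 1817 in swd22Δ, 2110, 2079 and 2369 in ppn1Δ, and 1403, 1339 and 993 in wild-type. All 3 mutants lay above wild-type, by log2 fold changes of 2.87 in dis2Δ (SE 0.135), 0.95 in swd22Δ (SE 0.132) and 0.72 in ppn1Δ (SE 0.132). The last 2 missed the 2-fold cutoff at edgeR adjusted p values of 2.5e-05 and 0.00027. The swd22Δ value passed 2-fold without swd22Δ replicate 1 (1.01), without swd22Δ replicate 3 (1.07) or without wild-type replicate 1 (1.05).

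The enolase gene eno102, whose product carries out a step of glycolysis, moved in opposite directions. It had 609, 556 and 610 counts in dis2Δ, 21, 16 and 29 in swd22Δ, 34, 19 and 61 in ppn1Δ, and 54, 76 and 48 in wild-type. Its log2 fold change was 3.33 in dis2Δ (SE 0.2, edgeR adjusted p = 1.4e-09) and -1.42 in swd22Δ (SE 0.282, edgeR adjusted p = 0.0007). In swd22Δ and wild-type its mean stayed under 100. The direct log2 difference of dis2Δ over swd22Δ was 4.74 (SE 0.232). Of its length 79.23% is overlapped by SPNCRNA.1302 on the other strand, which was itself higher in dis2Δ by 1.37 on the log2 scale and had a log2 fold change of 0.20 in swd22Δ (edgeR adjusted p = 0.19).

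The arylsulfatase gene SPBPB10D8.02c, for an enzyme that removes sulfate from esters, had 624, 566 and 732 counts in dis2Δ, 95, 137 and 45 in swd22Δ, 115, 147 and 165 in ppn1Δ, and 66, 80 and 42 in wild-type. It was the only locus of the left end called higher in ppn1Δ, with log2 fold changes of 3.37 in dis2Δ (SE 0.247) and 1.09 in ppn1Δ (SE 0.268). The ppn1Δ call was lost without ppn1Δ replicate 2 (0.93) or without wild-type replicate 3 (0.91). SPNCRNA.1307, which overlaps most of it on the other strand, was called higher in all 3 mutants, by 2.81 in dis2Δ, 1.42 in swd22Δ and 1.43 in ppn1Δ on the log2 scale.

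The gene cmt2, for a catechol O-methyltransferase, has 15.21% of its length overlapped by SPNCRNA.1304 on the other strand. It was not called against wild-type in any mutant but differed between mutants. It had 593, 520 and 467 counts in dis2Δ, 134, 202 and 127 in swd22Δ, 275, 231 and 319 in ppn1Δ, and 216, 296 and 384 in wild-type. The dis2Δ libraries lay above wild-type and the swd22Δ libraries below, by 0.81 and -0.97 on the log2 scale (edgeR adjusted p = 0.0012 and 0.00053). The direct log2 difference of dis2Δ over swd22Δ was 1.78 (SE 0.182, edgeR adjusted p = 2.3e-06) and that of dis2Δ over ppn1Δ was 1.05 (SE 0.172). The wild-type libraries were widely spread, and cmt2 was called higher in dis2Δ without wild-type replicate 3 (1.10). It was called lower in swd22Δ without swd22Δ replicate 2 (-1.15), without wild-type replicate 1 (-1.16) or without wild-type replicate 2 (-1.02).

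Among 13 membrane transporter loci 9 were tested. The urea transporter gene SPBPB8B6.02c had the highest log2 fold change of any called locus of these ends in dis2Δ. It had 554, 452 and 463 counts in dis2Δ, 17, 21 and 21 in swd22Δ, 39, 28 and 49 in ppn1Δ, and 18, 20 and 20 in wild-type. In dis2Δ it was 25.25-fold higher than in wild-type (log2 4.66, SE 0.154, edgeR adjusted p = 3.9e-13). In swd22Δ the log2 fold change was 0.03 (edgeR adjusted p = 0.94), and in ppn1Δ it was 0.88 (edgeR adjusted p = 0.0015), under 2-fold and with a mean under 100. The cysteine transporter gene SPBPB10D8.01, of which 5.51% is overlapped by SPBPB10D8.02c on the other strand, was already abundant, with 2440, 1963 and 2189 counts in dis2Δ, 750, 1056 and 732 in swd22Δ, 949, 900 and 1087 in ppn1Δ, and 631, 630 and 512 in wild-type. The log2 fold change of this transporter gene was 1.90 in dis2Δ (SE 0.0946), 0.51 in swd22Δ and 0.63 in ppn1Δ. The amino acid permease gene aat1, which carries amino acids into the cell and is among the most abundant loci of these ends, had 2707, 2194 and 2364 counts in dis2Δ, 1847, 2344 and 1732 in swd22Δ, 2245, 1978 and 2333 in ppn1Δ, and 2061, 2052 and 1652 in wild-type. In dis2Δ it differed by 0.34 on the log2 scale (SE 0.0747), well under the cutoff.

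The cell surface and cytoskeleton group held 3 loci. The gene pfl7, for a glycoprotein of the DIPSY family of flocculins, had 1182, 878 and 919 counts in dis2Δ, 243, 493 and 266 in swd22Δ, 374, 385 and 366 in ppn1Δ, and 296, 279 and 253 in wild-type. It was called in dis2Δ only, with a log2 fold change of 1.85 (SE 0.175), and the direct differences of dis2Δ over swd22Δ and over ppn1Δ were 1.58 and 1.49 (edgeR adjusted p = 5.1e-06 and 5e-06). The gene mug14, named for its rise in meiosis and annotated as an adducin of the actin cytoskeleton, had 209, 158 and 214 counts in dis2Δ, 52, 82 and 44 in swd22Δ, 99, 102 and 111 in ppn1Δ, and 54, 43 and 33 in wild-type. Its log2 fold change was 2.16 in dis2Δ (SE 0.2) and 1.16 in ppn1Δ (SE 0.21), where its mean of 99.42 normalized counts fell just short of the cutoff. It reached means of 100.1 to 103.3 and the ppn1Δ call with any of 6 libraries left out, namely dis2Δ replicates 2 and 3, swd22Δ replicate 3, ppn1Δ replicates 1 and 3 and wild-type replicate 3.

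All 4 tested pseudogenes lay at the left end, and 3 were called higher in dis2Δ, where 1.75% of all loci tested were. SPBC1348.11 had 313, 274 and 278 counts in dis2Δ, 19, 19 and 29 in swd22Δ, 45, 41 and 38 in ppn1Δ, and 12, 13 and 11 in wild-type. It was 23.92-fold higher in dis2Δ (log2 4.58, SE 0.211), and in ppn1Δ its log2 fold change was 1.68 (SE 0.26) at a mean under 100. SPBPB10D8.03 had 333, 236 and 293 counts in dis2Δ, 43, 68 and 36 in swd22Δ, 56, 79 and 69 in ppn1Δ, and 43, 33 and 22 in wild-type, with a log2 fold change of 3.14 in dis2Δ. SPBPB21E7.08 was far more abundant, with 3609, 3230 and 2860 counts in dis2Δ, 1646, 1615 and 1488 in swd22Δ, 1700, 1211 and 1850 in ppn1Δ, and 1144, 1505 and 1232 in wild-type. In dis2Δ it was higher by 1.33 on the log2 scale (SE 0.0821), and its direct difference of 1.03 over swd22Δ fell under 2-fold without dis2Δ replicate 2 (0.99) or without swd22Δ replicate 2 (0.998). SPNCRNA.1305 overlaps 93.96% of SPBPB21E7.08 on the other strand and had a log2 fold change of 0.63 in dis2Δ. The fourth pseudogene, SPBPB21E7.06, had 22, 38 and 26 counts in dis2Δ, 1, 0 and 2 in swd22Δ, 3, 1 and 3 in ppn1Δ, and 0, 0 and 2 in wild-type, a ratio of 43.2 over wild-type in dis2Δ (exact 95% counting interval 11.6 to 362). The interval covers counting error only. This pseudogene passed the filter on low counts through dis2Δ, where it is high, so its ratio is a description only.

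Of 16 loci of unknown role 6 were tested. SPBPB21E7.11 was called higher in dis2Δ, with 142, 119 and 149 counts in dis2Δ, 14, 9 and 15 in swd22Δ, 31, 16 and 19 in ppn1Δ, and 11, 12 and 12 in wild-type, a log2 fold change of 3.54 (SE 0.243). SPBPB21E7.10 overlaps it on the other strand over 94.3% of its own length and held at most 6 counts in any library.

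**Figure D3:**
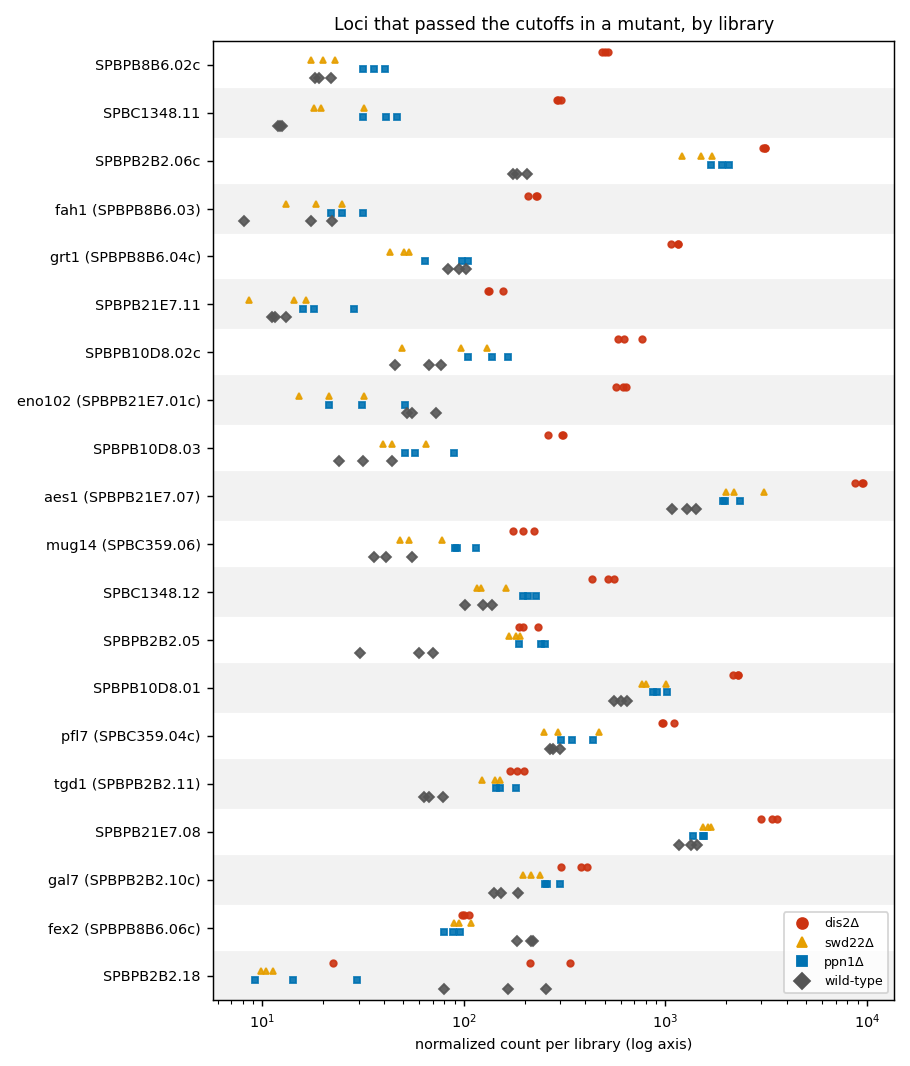
Normalized count in each library (x axis, log scale) of the 18 loci called higher in dis2Δ, ordered by their fold change, and of fex2 and SPBPB2B2.18, which were called lower in a mutant; circles are dis2Δ, triangles swd22Δ, squares ppn1Δ and diamonds wild-type. For most loci the dis2Δ libraries stand alone to the right, whereas SPBPB2B2.06c, SPBPB2B2.05 and tgd1 are raised in all 3 mutants and fex2 is lowered in all 3.

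At the right end 3 of 14 loci tested were called higher in every mutant, and no locus of the 28 tested at the left end was. Over all loci tested 1.75%, 1.55% and 1.67% were called higher in dis2Δ, swd22Δ and ppn1Δ, and the share called in every mutant was not counted. Of the 3 loci, tgd1 lay at the 2-fold cutoff in swd22Δ. The largest change was in SPBPB2B2.06c, annotated as a phosphoprotein phosphatase and 68.64 kb from the end. It had 3331, 2776 and 2974 counts in dis2Δ, 1474, 1273 and 1547 in swd22Δ, 2250, 1497 and 2295 in ppn1Δ, and 173, 192 and 190 in wild-type. It was 16.4-fold higher in dis2Δ (log2 4.04), 7.79-fold in swd22Δ (log2 2.96) and 10.02-fold in ppn1Δ (log2 3.32), each with an SE of 0.116 on the log2 scale and edgeR adjusted p values of 6.2e-14, 3.4e-12 and 6.3e-13. It was 2.11-fold higher in dis2Δ than in swd22Δ (edgeR adjusted p = 3.9e-07), a difference that fell under 2-fold without swd22Δ replicate 2 (log2 0.95). SPBPB2B2.06c has 100% unique words and overlaps no counted locus.

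SPBPB2B2.05, a protein of the class I glutamine amidotransferase family about 72.2 kb from the end, had 201, 177 and 224 counts in dis2Δ, 178, 200 and 153 in swd22Δ, 263, 166 and 304 in ppn1Δ, and 30, 73 and 55 in wild-type. Its log2 fold changes were 1.94 in dis2Δ, 1.75 in swd22Δ and 2.09 in ppn1Δ (SE 0.21, 0.211 and 0.207). No direct comparison between mutants passed the test. The direct log2 differences were 0.19 (SE 0.182) for dis2Δ over swd22Δ, -0.15 (SE 0.178) for dis2Δ over ppn1Δ and -0.34 (SE 0.18) for swd22Δ over ppn1Δ, with edgeR adjusted p values of 0.52, 0.56 and 0.29.

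The gene tgd1, for a nucleotide-sugar dehydratase, had 212, 153 and 176 counts in dis2Δ, 148, 150 and 112 in swd22Δ, 157, 134 and 219 in ppn1Δ, and 62, 70 and 72 in wild-type. Its log2 fold changes were 1.41 in dis2Δ, 1.00 in swd22Δ and 1.201 in ppn1Δ (SE 0.151, 0.154 and 0.152). In swd22Δ it lay at the 2-fold cutoff and lost the call, at 0.94 to 0.99, without swd22Δ replicate 1, swd22Δ replicate 2, wild-type replicate 1, wild-type replicate 2 or dis2Δ replicate 2. Of its length 98.83% is shared with gal10 on the other strand.

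That partner belongs to the galactose genes of the right end, gal7, gal10 and gal1, which encode the enzymes of the Leloir pathway that turns galactose into glucose phosphate. The gene gal7 had 326, 346 and 392 counts in dis2Δ, 193, 250 and 197 in swd22Δ, 281, 223 and 362 in ppn1Δ, and 150, 194 and 130 in wild-type, and was called in dis2Δ with a log2 fold change of 1.19 (SE 0.139). The gene gal10 had 258, 246 and 289 counts in dis2Δ, 172, 185 and 158 in swd22Δ, 234, 149 and 320 in ppn1Δ, and 104, 183 and 150 in wild-type, with a log2 fold change of 0.87 in dis2Δ (SE 0.177). It reached 1.01 and the call without wild-type replicate 2. The gene gal1 had 461, 435 and 422 counts in dis2Δ, 334, 419 and 280 in swd22Δ, 451, 380 and 627 in ppn1Δ, and 292, 341 and 294 in wild-type, with log2 fold changes of 0.52 in dis2Δ and 0.54 in ppn1Δ. SPNCRNA.1697, which overlaps 58.05% of gal1 on the other strand, was called higher in dis2Δ by 1.00 on the log2 scale, and 93.68% of gal10 is overlapped by tgd1 on the other strand. All 3 galactose genes thus lay above wild-type in dis2Δ, gal10 and gal1 by less than 2-fold. In ppn1Δ the log2 fold changes of gal7 and gal10 were 0.756 and 0.555 (edgeR adjusted p = 0.0003 and 0.016), though the gal10 libraries overlapped those of wild-type. In swd22Δ they were 0.438 and 0.24 (edgeR adjusted p = 0.022 and 0.31). None of the 3 genes was called between dis2Δ and ppn1Δ.

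Between SPBPB2B2.06c and the galactose genes lie SPBPB2B2.07c and SPBPB2B2.08, both of unknown role and with few counts. SPBPB2B2.08 had 94, 81 and 90 counts in dis2Δ, 31, 23 and 20 in swd22Δ, 39, 35 and 42 in ppn1Δ, and 8, 10 and 7 in wild-type. Its log2 fold changes of 3.40, 1.56 and 2.09 passed the p and fold cutoffs in dis2Δ, swd22Δ and ppn1Δ, with means under 100. SPBPB2B2.07c had 14, 14 and 14 counts in dis2Δ, 1, 3 and 2 in swd22Δ, 2, 4 and 4 in ppn1Δ, and 0 in all wild-type libraries. Set against 3 counts per wild-type library, it was at least 4.7-fold higher in dis2Δ and at least 1.05-fold higher in ppn1Δ. Its values in swd22Δ do not exceed that floor.

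The only locus called lower in all 3 mutants was fex2, for the plasma membrane channel that exports fluoride. It had 107, 96 and 94 counts in dis2Δ, 106, 94 and 86 in swd22Δ, 105, 78 and 96 in ppn1Δ, and 216, 191 and 198 in wild-type. It was 2.03-fold lower in dis2Δ, 2.11-fold in swd22Δ and 2.34-fold in ppn1Δ (SE 0.136, 0.136 and 0.137 on the log2 scale, edgeR adjusted p = 1.6e-05, 9.1e-06 and 1.7e-06). In dis2Δ the fall was at the 2-fold cutoff and the call was lost without wild-type replicate 1 (-0.96), without wild-type replicate 3 (-0.99) or without dis2Δ replicate 3, where it came just short of 2-fold.

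This locus has a near-identical copy on chromosome I, fex1, and the coding sequences differ at 1 of 936 bases (99.89% identity). The difference lies in the first 30 coding bases, shown 5′ to 3′ with the differing base in capitals:
fex2: atgctTttaacacagtcttacttttgtata
fex1: atgctAttaacacagtcttacttttgtata
The substitution is T6A, with the base of fex2 given before that of fex1 and positions counted from 1 at the start codon. The stretch of fex2 is at 56756 to 56785 on the minus strand of chromosome II and that of fex1 at 55274 to 55303 on the plus strand of chromosome I (ASM294v3). Only 25.83% of the words of fex2 are unique. For fex1 the libraries had 82, 46 and 72 counts in dis2Δ, 83, 72 and 40 in swd22Δ, 78, 93 and 116 in ppn1Δ, and 190, 154 and 169 in wild-type, with log2 fold changes of -1.36, -1.40 and -0.94. Both copies thus lay below wild-type in every mutant, and how the authors' counting divided reads between them was not tested.

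SPBPB2B2.18, an uncharacterized protein 36.14 kb from the right end with 2.6% of its length overlapped by SPBPB2B2.19c on the other strand, gave the largest falls. It had 24, 303 and 204 counts in dis2Δ, 11, 11 and 9 in swd22Δ, 10, 26 and 17 in ppn1Δ, and 78, 172 and 236 in wild-type, so that the dis2Δ libraries were split and overlapped wild-type. It fell by 3.96 in swd22Δ (SE 0.777, edgeR adjusted p = 0.0006) and by 3.29 in ppn1Δ (SE 0.705, edgeR adjusted p = 0.001) on the log2 scale. In dis2Δ the log2 fold change was 0.17 (SE 0.524, edgeR adjusted p = 0.82), and it was -0.51 without dis2Δ replicate 2 and 0.72 without dis2Δ replicate 1. The direct log2 differences of dis2Δ were 4.14 over swd22Δ (SE 0.77) and 3.47 over ppn1Δ (SE 0.7). Both were called (edgeR adjusted p = 0.0012 and 0.0013), although the dis2Δ and ppn1Δ libraries overlapped.

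None of the 278 words of 51 bases in SPBPB2B2.18 is unique in the genome. Every word also occurs in the last 60 kb of chromosome I and in the first 60 kb of chromosome II, and 62.95% occur in the first 60 kb of chromosome I. A read within these words alone therefore has no single place. Which chromosome end the counts came from was not tested. The copy SPAC977.18 on chromosome I, which shares 45.32% of the words, had 378, 412 and 201 counts in dis2Δ, 62, 44 and 44 in swd22Δ, 48, 45 and 35 in ppn1Δ, and 136, 195 and 304 in wild-type. Its log2 fold changes of -2.09 in swd22Δ and -2.42 in ppn1Δ were called as well, and that in dis2Δ was 0.64 (edgeR adjusted p = 0.071).

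The 2 asparaginase loci of the left end, for enzymes that split asparagine into aspartate and ammonia, also have copies on chromosome I. SPBPB21E7.09 had 914, 741 and 812 counts in dis2Δ, 638, 676 and 620 in swd22Δ, 579, 507 and 680 in ppn1Δ, and 564, 642 and 517 in wild-type, a log2 fold change of 0.53 in dis2Δ (SE 0.0751). Its copy SPAC186.03, with 98.61% identity over 1083 aligned coding bases, had 182, 138 and 273 counts in dis2Δ, 1, 1 and 2 in swd22Δ, 7, 0 and 4 in ppn1Δ, and 4, 7 and 6 in wild-type. SPAC186.03 was higher in dis2Δ by 5.10 on the log2 scale (SE 0.368), and the difference between the copies was not tested. SPBPB8B6.05c had 1201, 882 and 1055 counts in dis2Δ, 828, 873 and 704 in swd22Δ, 843, 730 and 1005 in ppn1Δ, and 1145, 1164 and 948 in wild-type, with log2 fold changes of -0.05, -0.43 and -0.44.

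**Figure D4:**
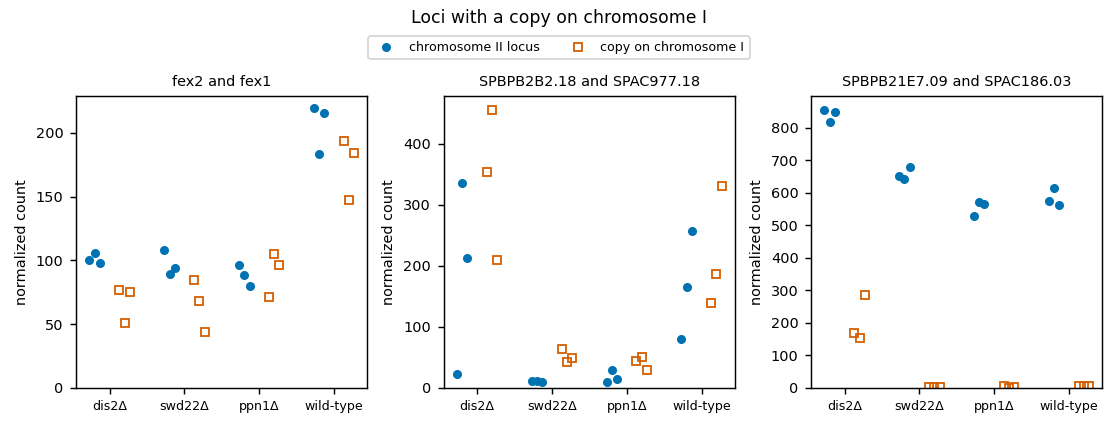
Normalized counts per library (y axes, from 0) of fex2, SPBPB2B2.18 and SPBPB21E7.09 (filled circles) in dis2Δ, swd22Δ, ppn1Δ and wild-type. Open squares are a copy of each on chromosome I, which for SPBPB2B2.18 shares only part of its words. The fex genes fall together in all 3 mutants, SPBPB2B2.18 and SPAC977.18 are low in swd22Δ and ppn1Δ, and SPAC186.03 is above 100 only in dis2Δ.

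The gene tlh2, for the RecQ-type helicase next to the telomere, was the tested locus nearest to the right end and had few counts in every strain. It had 8, 5 and 5 counts in dis2Δ, 8, 5 and 11 in swd22Δ, 3, 12 and 10 in ppn1Δ, and 6, 12 and 10 in wild-type over 6015 bases of exon. Its log2 fold changes were -0.62 in dis2Δ (SE 0.515), -0.21 in swd22Δ (SE 0.484) and -0.26 in ppn1Δ (SE 0.48), and the libraries overlapped. With these standard errors, even a 2-fold change could go undetected at this depth. Only 6.77% of its words are unique. It differs from tlh1 on chromosome I at 1 of 5662 aligned coding bases, and tlh1 had at most 3 counts in any library. How many reads were left uncounted for having several places was not tested. The other 4 loci of the repeat group, annotated as transmembrane helix proteins, had at most 6 counts in any library and were not tested.

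Whether the mutants differed from each other was tested directly. Of the 18 loci higher in dis2Δ, 14 were called in no other mutant, and 12 of these 14 were also called higher in dis2Δ than in swd22Δ and than in ppn1Δ. The 14 were picked with the same dis2Δ libraries that the direct comparisons use, so the 12 are a description only. The share of all loci tested with these patterns was not counted. Over all 67 loci, 17 were higher in dis2Δ than in swd22Δ and none lower (1.1% and 0.295% of all loci tested were called), and 15 were higher in dis2Δ than in ppn1Δ and none lower (1.24% and 0.491% of all loci). By end, 15 of the 17 and 14 of the 15 lay at the left end. The right-end loci were SPBPB2B2.06c and SPBPB2B2.18 over swd22Δ, and SPBPB2B2.18 over ppn1Δ. For SPBPB2B2.18 the dis2Δ and ppn1Δ libraries overlapped. The 2 loci called in dis2Δ alone that did not differ from both other mutants were gal7, with direct log2 differences of 0.75 over swd22Δ and 0.43 over ppn1Δ, and mug14, with 0.999 over ppn1Δ (edgeR adjusted p = 0.00047), which lies at the 2-fold cutoff and passed it without dis2Δ replicate 1 (1.01), dis2Δ replicate 2 (1.084) or ppn1Δ replicate 2 (1.11). Without the cutoff on the mean count, 25 loci were higher and none lower in dis2Δ than in swd22Δ (1.95% and 0.769% of all loci tested), and 23 were higher and 1 lower in dis2Δ than in ppn1Δ (1.91% and 1.72%). The 25 and the 23 both include the 6 loci with fewer than 10 counts in every wild-type library. Those loci passed the filter on low counts through the mutants, so these numbers are a description only.

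Between swd22Δ and ppn1Δ no locus was called in either direction by edgeR's quasi-likelihood test or by DESeq2, where 0.0327% and 0.0164% of all loci tested were called higher and lower (0.0491% and 0.0818% without the cutoff on the mean count). All 3 swd22Δ libraries lay below all 3 ppn1Δ libraries for 11 loci, where 8.17% of all loci tested did so. At an unadjusted p under 0.05 there were 1 higher and 16 lower in swd22Δ, where 13.6% and 8.0% of all loci tested were. At an adjusted p at or below 0.05 with no other cutoff there were none higher and 7 lower, where 5.27% and 1.05% of all loci tested were. The median log2 difference of swd22Δ over ppn1Δ was -0.35 over the 42 loci, where that over all loci was -0.01. The comparisons with wild-type share the wild-type libraries, and the direct comparisons share the mutant libraries, so that they are not independent of each other.

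Promoters of the 18 loci called higher in dis2Δ were searched for short motifs chosen after the values were known. The windows ran from 250 bases before to 50 bases after the annotated start. The motif GATAAG, the core read by GATA-type factors, was present on either strand in 3 of the 18 windows and in 11.49% of the 5144 windows of all coding and pseudogene loci. The motif GGTTAC, searched in the same way, was present in 1 of the 18 and in 7.31% of all windows. The matches to GATAAG are shown 5′ to 3′ on the strand of the gene, in stretches of 30 bases with the motif or its reverse complement in capitals, because these 3 loci hold the matches among the called loci (SPBPB10D8.02c holds 2, of which 1 is shown):
SPBPB10D8.02c: gatttactgaatCTTATCtctaaaatattc
fah1: ttccttgtcgatGATAAGtttcagttcgat
grt1: gatataaattatCTTATCaaatgtcctatt
They lie on chromosome II at 85721 to 85750 (minus strand), 47287 to 47316 (plus strand) and 51325 to 51354 (minus strand). A match is a run of letters and does not show that a factor binds there.

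Factors known to form or limit subtelomere silencing, among them the Clr4 methyltransferase complex, the RNAi factors, Swi6 and the telomere proteins Taz1, Rap1 and Ccq1, were read as a list of 45 genes, all of which were tested. None was called in any mutant by edgeR's quasi-likelihood test or by DESeq2. At an unadjusted edgeR p under 0.05, 4 were higher and 9 lower in dis2Δ, 4 higher and 6 lower in swd22Δ, and 10 higher and 10 lower in ppn1Δ. The shares of all loci tested at that threshold were 23.8% and 25.6% in dis2Δ, 23.6% and 24.8% in swd22Δ, and 27.7% and 27.6% in ppn1Δ. At an adjusted p at or below 0.05 without the other cutoffs, 2 were higher and 8 lower in dis2Δ, 4 higher and 5 lower in swd22Δ, and 9 higher and 8 lower in ppn1Δ. Of all loci tested, 19.5% and 21.8% passed it in dis2Δ, 19.3% and 20.5% in swd22Δ, and 24.5% and 25.2% in ppn1Δ. The log2 fold changes of the list in dis2Δ lay between -0.37 and 0.48, with a median of -0.06.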

How the data were processed

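Poly(A)+ RNA of 12 libraries was sequenced with paired-end reads of 51 bases from a stranded kit. Per the labels and the study's methods, the authors mapped reads with HISAT2 2.1.0 and counted them with HTSeq 0.10.0 on exons of ASM294v2, and the deposited values are raw counts per locus. The counting rule for reads that fit several places was not given in the sources used here. The table gives 6987 entries under 6986 IDs, and the repeated ID was summed over its entries.

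All 67 loci matched the ASM294v3 RefSeq annotation, from which every position and sequence was taken. No coordinates were converted. The loci and lists were chosen with earlier results of these data known. Named were all loci called in a mutant or between mutants, tlh2 and the other repeat loci, the 5 most abundant, and the locus nearest to each end with at least 10 counts in a library. Further loci were named after their values were seen, where they complete a group or have a copy.

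The tests used the quasi-likelihood method of edgeR 4.0.16 under R 4.3.3, after its default filter on low counts and TMM scaling. All 12 libraries shared a fit (common dispersion 0.00563), and p-values were adjusted by Benjamini-Hochberg over the 6110 loci kept. The calls used the cutoffs of the study. On simulated counts with known changes the procedure was checked before use. Every pair of replicates differed by more than sampling noise (ratios of chi-square to its degrees of freedom between 5.49 and 24.1), and all were kept. Alternatives were DESeq2 1.42.0, other normalizations, filters and cutoffs, a replicate block, and each library left out. Total counts were 17616688 to 23435936, and at the common dispersion counting noise exceeds the other variation for loci under 100 counts.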

Additional observations from a re-analysis of the deposited data

How the results depend on the processing

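At these cutoffs 19 loci were called in dis2Δ, 5 in swd22Δ and 6 in ppn1Δ against wild-type, with 17 for dis2Δ over swd22Δ, 15 for dis2Δ over ppn1Δ and 0 for swd22Δ over ppn1Δ. DESeq2, relative log expression factors, library size alone, no filter on low counts, the compared strains alone and an adjusted p of 0.01 moved none of these counts by over 1.5 times. The cutoffs on level and fold mattered more. Without the mean-count cutoff there were 10 in swd22Δ, 11 in ppn1Δ and 24 for dis2Δ over ppn1Δ. Each of these counts includes loci that had fewer than 10 counts in every wild-type library. A mean of at least 500 left 10 in dis2Δ, 1 in swd22Δ, 1 in ppn1Δ and 11 for dis2Δ over swd22Δ. Without the fold cutoff there were 12 in swd22Δ, 16 in ppn1Δ, 26 for dis2Δ over swd22Δ, 24 for dis2Δ over ppn1Δ and 4 for swd22Δ over ppn1Δ. Loci with at least 50% unique words gave 3 in swd22Δ. Leaving out loci that overlap a counted locus on the other strand, an alternative chosen after seeing the data, left 11 in dis2Δ, 3 in swd22Δ, 3 in ppn1Δ, 8 for dis2Δ over swd22Δ and 6 for dis2Δ over ppn1Δ. With each library left out in turn the counts were 18 to 20, 5 to 6, 5 to 7, 15 to 17, 15 to 16 and 0 to 0 in the order above.

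The same replicate numbers occur in all strains but did not pair the samples: of 18 same-numbered pairs 5 had deviations correlated over 0.1 (range -0.307 to 0.261). Differently numbered pairs ranged from -0.383 (ppn1Δ replicate 1 with swd22Δ replicate 2) to 0.446 (wild-type replicate 2 with ppn1Δ replicate 3). Whether libraries share a batch under another numbering was not tested. With the replicate number as a block the counts were 19, 5, 6, 17, 16 and 0. The block turned SPBPB2B2.18 in dis2Δ to -0.053 (log2, from 0.17).

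Leaving out a library was run on the fold changes over wild-type of 21 loci, those called in a mutant and tlh2. Those among them that changed sign were uncalled. Their ranges in swd22Δ were -0.029 to 0.244 for SPBC1348.12, -0.06 to 0.441 for pfl7 (SPBC359.04c), -0.066 to 0.365 for SPBPB21E7.11, -0.073 to 0.119 for SPBPB8B6.02c, -0.059 to 0.58 for fah1 (SPBPB8B6.03) and -0.558 to 0.081 for tlh2 (SPBCPT2R1.08c). In ppn1Δ they were -0.221 to 0.111 for grt1 (SPBPB8B6.04c) and -0.738 to 0.159 for tlh2, and in dis2Δ -0.51 to 0.716 for SPBPB2B2.18. The cause was not tested. Most loci within 30 kb of the left end and 40 kb of the right end have few counts and few unique words, and which of these limits their measurement was not tested.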

Other observations

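Non-coding loci between the coding loci of both ends were counted too. Of 21 such SPNCRNA loci 14 were tested, and 6 were called higher in dis2Δ, 2 in swd22Δ and 2 in ppn1Δ, with none called lower. Of all loci tested 1.75%, 1.55% and 1.67% were called higher in these mutants, and 1.03%, 1.72% and 1.78% lower. The list was taken by position, with results of these data known. SPNCRNA.1696, 73.518 kb from the right end and next to SPBPB2B2.05, was called higher in all 3 mutants, and dis2Δ lay below ppn1Δ (direct log2 difference -1.15, edgeR adjusted p = 4.7e-06). It had 277 to 366 counts in dis2Δ, 383 to 610 in swd22Δ, 669 to 969 in ppn1Δ and 101 to 162 in wild-type, with log2 fold changes of 1.39, 1.995 and 2.54 (SE 0.149, 0.146 and 0.145). SPNCRNA.293, which lies at the left end between pfl7 and the transporter gene abc3, had 209 to 254 counts in dis2Δ, 64 to 109 in swd22Δ, 77 to 105 in ppn1Δ and 62 to 80 in wild-type, and was called in dis2Δ alone with a log2 fold change of 1.75 (SE 0.189). SPNCRNA.287, 21.059 kb from the left end and next to SPBC1348.08c, had 83 to 103 counts in dis2Δ, 5 to 11 in swd22Δ, 7 to 24 in ppn1Δ and 1 to 14 in wild-type. Its log2 fold change in dis2Δ was 3.44 (SE 0.374, edgeR adjusted p = 1.7e-06), with a mean under 100.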
